A study of Mus musculus with 9 samples.

Results

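The genes described here carry sugar into the liver cell, start its use and govern the glycogen store. They were 8 genes taken by symbol, namely Khk, Slc2a2, Gckr, Pygl, Gys2, Pfkl, Pfkfb1 and Ppp1r3c. The array annotation used here gave 7 of them a probe set with 1 gene symbol, each a single probe set, out of 19938 genes with such a probe set. Pfkfb1, which makes and degrades fructose 2,6-bisphosphate in liver, was not among these, and its level was not analysed here.

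Liver RNA came from male C57BL/6J mice fed semisynthetic diets that crossed fat content with protein content. LF diets took 10% and HF diets 35% of energy from fat, while NP diets took 15% and HP diets 50% of energy from protein, supplied as milk protein. Carbohydrate, as cornstarch and sucrose, made up the rest, which was 75% of energy in LF-NP, 50% in HF-NP, 40% in LF-HP and 15% in HF-HP. The mice had eaten a weighed meal before the liver was taken, so the levels belong to the fed state. All groups had first eaten LF-NP, and a reference group was killed at week 0, at 12 weeks of age. The groups kept on LF-NP or moved to HF-NP, LF-HP or HF-HP followed after 1 week, at 13 weeks of age, and after 12 weeks, at an age labelled as 22 weeks. Each of the 9 groups was 1 pool of RNA from 5 mice on 1 Affymetrix Mouse Gene 1.0 ST array. Differences between mice within a group were therefore not seen, and no group had a replicate pool. The p-values below are set against the spread between pools that the terms of each fit leave over. In that spread, pool and array noise cannot be told apart from departures from those terms. Values are log2 signals, so that a difference of 1 is a doubling, and levels are compared between pools but not between genes, whose probe sets differ. As whole liver was used, fewer cells of a type and less RNA per cell cannot be told apart.

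Glucose and fructose reach the hepatocyte from the portal blood through GLUT2, the product of Slc2a2. Fructose is phosphorylated by ketohexokinase (Khk), bypassing the controlled early steps of glycolysis, whereas glucose is phosphorylated by glucokinase, which the regulatory protein encoded by Gckr holds in the nucleus until fructose 1-phosphate or glucose releases it. After a meal glucose units are stored as glycogen by the liver synthase Gys2, with help from phosphatase subunits such as Ppp1r3c that bring protein phosphatase 1 to the glycogen particle, and between meals they are released by the liver phosphorylase Pygl. Pfkl is the liver subunit of phosphofructokinase, the controlled step of glycolysis. ChREBP, a transcription factor active when glucose is plentiful, binds carbohydrate response elements, in which a pair of E-box-like motifs flank a short spacer.

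The promoters are shown for the 3 genes of the set that were lower in HP than in NP pools and for Pklr, liver pyruvate kinase, a glycolytic gene outside the set that was also lower and whose promoter holds a carbohydrate response element. The sequences are RefSeq windows on build GRCm38.p6 from 250 bases before to 50 bases after the transcription start, read on the strand of the gene. Capitals mark the motifs searched on both strands, which were the E-box CACGTG, the GC box GGGCGG, the CCAAT box, the TATA box spelled TATAAA, the core GTTAAT of the HNF1 site, the forkhead site spelled TGTTTAC and the carbohydrate response element. No motif of one kind overlapped another in the windows shown.
Khk, chr5:30921309-30921608, plus strand: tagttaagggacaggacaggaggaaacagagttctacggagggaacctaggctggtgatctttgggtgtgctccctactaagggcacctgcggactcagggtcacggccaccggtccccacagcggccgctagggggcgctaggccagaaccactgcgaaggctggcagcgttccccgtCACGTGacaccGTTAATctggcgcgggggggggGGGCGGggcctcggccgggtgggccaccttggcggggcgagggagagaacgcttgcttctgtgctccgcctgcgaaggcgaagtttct
Slc2a2, chr3:28697653-28697952, plus strand: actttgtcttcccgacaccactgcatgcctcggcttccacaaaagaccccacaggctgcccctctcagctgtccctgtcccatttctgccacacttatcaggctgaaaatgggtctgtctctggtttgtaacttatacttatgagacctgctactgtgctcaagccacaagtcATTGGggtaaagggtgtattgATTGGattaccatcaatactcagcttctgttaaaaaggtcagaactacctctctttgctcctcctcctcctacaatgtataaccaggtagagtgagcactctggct
Pygl, chr12:70227634-70227933, minus strand: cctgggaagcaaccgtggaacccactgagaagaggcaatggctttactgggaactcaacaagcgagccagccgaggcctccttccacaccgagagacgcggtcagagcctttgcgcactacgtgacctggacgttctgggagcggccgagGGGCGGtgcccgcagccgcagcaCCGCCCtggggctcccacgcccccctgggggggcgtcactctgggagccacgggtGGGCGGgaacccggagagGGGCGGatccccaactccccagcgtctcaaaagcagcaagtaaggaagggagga
Pklr, second start, chr3:89136373-89136672, plus strand: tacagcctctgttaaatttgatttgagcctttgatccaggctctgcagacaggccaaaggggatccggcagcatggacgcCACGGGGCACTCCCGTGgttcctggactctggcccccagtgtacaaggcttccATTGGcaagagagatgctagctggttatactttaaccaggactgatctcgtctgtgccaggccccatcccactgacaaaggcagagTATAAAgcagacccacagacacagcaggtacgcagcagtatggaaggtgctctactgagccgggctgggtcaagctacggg
In the Khk window the E-box began 71 bases before the start, the HNF1 core 60 bases before it and a GC box 38 bases before it. The Slc2a2 window held the CCAAT box on the reverse strand at 77 and 56 bases before the start and no E-box. The Pygl window held 4 GC boxes and none of the other motifs. In the Pklr window the carbohydrate response element began 170 bases before the start, with a reverse CCAAT box at 117 and the TATA box at 31 bases before it. The window of the first Pklr start, not shown, held none of the motifs. For Tkfc, a fructose gene outside the set that was also lower, the window held a CCAAT box 66 bases before the start and none of the other motifs. Among all 32851 mouse windows, 7.15% held the E-box, 7.1% the HNF1 core, 35.7% the GC box, 37.4% the CCAAT box, 13.6% the TATA box, 3.65% the forkhead site and 0.119% the carbohydrate response element. Windows were listed for 7 of the 8 genes, all but Gys2. Besides Khk, the E-box was found in the window of Ppp1r3c, and none of the windows of the 7 genes matched the carbohydrate response element, which says only that these letters are not in these windows.

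The HP and NP diets were compared first, over both fat levels and both weeks. Of the 7 genes, Khk, Pygl and Slc2a2 were lower in HP than in NP pools (limma with protein, fat and week as terms over 8 pools, adjusted p under 0.05 over 19938 genes), and none was higher. Over all genes, 0.271% were called lower and 0.171% higher. The median HP minus NP difference was -0.23 over the 7 genes and -0.0043 over all genes. Because protein took the place of carbohydrate at both fat levels, more protein and less carbohydrate cannot be told apart within this comparison.

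Slc2a2, the GLUT2 transporter, had a log2 level of 11.17 in the reference pool. After 1 week it was 11.38 on LF-NP, 11.16 on HF-NP, 10.98 on LF-HP and 10.71 on HF-HP. After 12 weeks it was 11.38 on LF-NP, 11.26 on HF-NP, 11.12 on LF-HP and 10.76 on HF-HP. Every HP pool lay below every NP pool, and the 2 HF-HP pools were the lowest. The residual SD given here and below is the moderated one of the limma fit, drawn towards the spread of all genes. It describes a single pool, and a gap between pools varies more, so a gap slightly above it is not a resolved difference. The reference pool was outside that fit, and its gaps are set against the same SD only as a guide. In the order of levels, the LF-NP pools did not differ from each other beyond the residual SD of 0.085, nor did the HF-HP pools, nor the reference, HF-NP at 1 week and LF-HP at 12 weeks. The HP minus NP difference was -0.40 (SE 0.06, adjusted p = 0.0499), a change in signal of -24.2%, which lies at the edge of the threshold. At 1 week the difference was -0.39 within LF and -0.45 within HF, and at 12 weeks it was -0.25 within LF and -0.50 within HF.

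Khk, which commits fructose to the liver, showed the largest HP minus NP difference of the 7 genes. Its level was 10.91 in the reference pool. After 1 week it was 11.17 on LF-NP, 10.85 on HF-NP, 10.45 on LF-HP and 10.18 on HF-HP. After 12 weeks it was 11.24 on LF-NP, 11.03 on HF-NP, 10.77 on LF-HP and 10.45 on HF-HP. The groups did not overlap, since the highest HP pool, LF-HP at 12 weeks, lay below the lowest NP pool, HF-NP at 1 week. Neighbours within the residual SD of 0.085 were the LF-NP pools, the reference with HF-NP at 1 week, and LF-HP at 1 week with HF-HP at 12 weeks. HP pools differed from NP pools by -0.61 (SE 0.06, adjusted p = 0.0148), a change in signal of -34.7%. It amounted to -0.72 within LF and -0.67 within HF at 1 week and to -0.48 within LF and -0.59 within HF at 12 weeks. Tkfc, the triokinase that phosphorylates the glyceraldehyde derived from fructose and is no member of the set, fell with HP by 0.63 on the log2 scale (SE 0.08, adjusted p = 0.0375). Its HP pools ranged from 10.89 to 11.38 and its NP pools from 11.49 to 11.81.

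Gckr, the glucokinase regulator, lies 366 kb from Khk on chromosome 5, with 20 protein-coding genes between them in the GRCm38.p6 annotation. Its level was 10.05 in the reference pool. After 1 week it was 10.18 on LF-NP, 10.04 on HF-NP, 9.98 on LF-HP and 9.71 on HF-HP, and after 12 weeks it was 10.17, 10.00, 9.97 and 9.80 in the same order. All HP pools were below all NP pools, although the margin between LF-HP at 1 week and HF-NP at 12 weeks was only 0.016. From the reference down to LF-HP at 12 weeks, no neighbours differed by more than the residual SD of 0.077. Its HP minus NP difference of -0.23 (SE 0.05, 95% interval -0.35 to -0.10) did not pass the test (adjusted p = 0.183). The complete separation of HP below NP pools was thus met by 4 of the 7 genes, Khk, Slc2a2, Gckr and Pygl, and by 2.91% of all genes.

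Pygl, the phosphorylase that releases glucose units from liver glycogen, had a level of 10.84 in the reference pool. After 1 week it was 11.05 on LF-NP, 10.93 on HF-NP, 10.45 on LF-HP and 10.19 on HF-HP, and after 12 weeks it was 10.89, 10.86, 10.41 and 10.43 in the same order. The reference and NP pools were within 0.21 of one another, and a gap of 0.39 separated them from the HP pools. Apart from LF-NP at 1 week at the top and HF-HP at 1 week at the bottom, neighbours on either side of that gap differed by less than the residual SD of 0.104. Between HP and NP pools the difference was -0.56 (SE 0.07, adjusted p = 0.0383), a change in signal of -32.2%. It was -0.60 within LF and -0.73 within HF at 1 week and -0.48 within LF and -0.43 within HF at 12 weeks. The HF-HP pool at 1 week stood 0.22 below the other HP pools, which lay between 10.41 and 10.45.

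Glycogen synthesis did not show this difference at the level of its liver synthase. Gys2 was at 11.65 in the reference pool, and after 1 week it was 11.65 on LF-NP, 11.61 on HF-NP, 11.66 on LF-HP and 11.61 on HF-HP. After 12 weeks it was 11.71 on LF-NP, 11.66 on HF-NP, 11.87 on LF-HP and 11.72 on HF-HP. The pools overlapped, and the LF-HP pool at 12 weeks was the only one set off from its neighbour by more than the residual SD of 0.079. Its HP minus NP difference was 0.06 (SE 0.06, 95% interval -0.07 to 0.19, adjusted p = 0.807), an interval that leaves out a decrease of the size seen for Pygl.

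Ppp1r3c, the glycogen-targeting phosphatase subunit, was the most variable of the 7 genes, with a residual SD of 0.217 against 0.077 to 0.104 for the others. Its level was 8.96 in the reference pool. After 1 week it was 8.82 on LF-NP, 9.57 on HF-NP, 9.16 on LF-HP and 8.89 on HF-HP, and after 12 weeks it was 8.59, 8.47, 8.17 and 8.30 in the same order. Neighbours differed by more than that SD at the top, where HF-NP at 1 week stood 0.41 above the next pool, and between the pools of 1 week and those of 12 weeks. The HP minus NP difference at 1 week was 0.35 within LF and -0.69 within HF, and at 12 weeks it was -0.42 within LF and -0.16 within HF. The HP minus NP difference over both weeks was -0.23 (SE 0.15, 95% interval -0.59 to 0.13, adjusted p = 0.707), with overlapping pools. It became -0.40 without LF-NP at 1 week, -0.09 without HF-NP at 1 week and -0.14 without HF-HP at 1 week.

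Pfkl, the liver phosphofructokinase, stayed between 7.52 and 7.75 in the 9 pools. It was at 7.64 in the reference pool, at 7.66, 7.60, 7.59 and 7.72 after 1 week and at 7.75, 7.59, 7.52 and 7.64 after 12 weeks on LF-NP, HF-NP, LF-HP and HF-HP. No pool differed from the next in rank by more than the residual SD of 0.099. The HP minus NP difference was -0.03 (SE 0.07, 95% interval -0.20 to 0.13, adjusted p = 0.931). It was negative in both weeks within LF, at -0.07 and -0.23, and positive in both weeks within HF, at 0.12 and 0.05, but the interaction of protein with fat did not pass the test (0.23, 95% interval -0.05 to 0.51, adjusted p = 0.727).

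**Figure D1:**
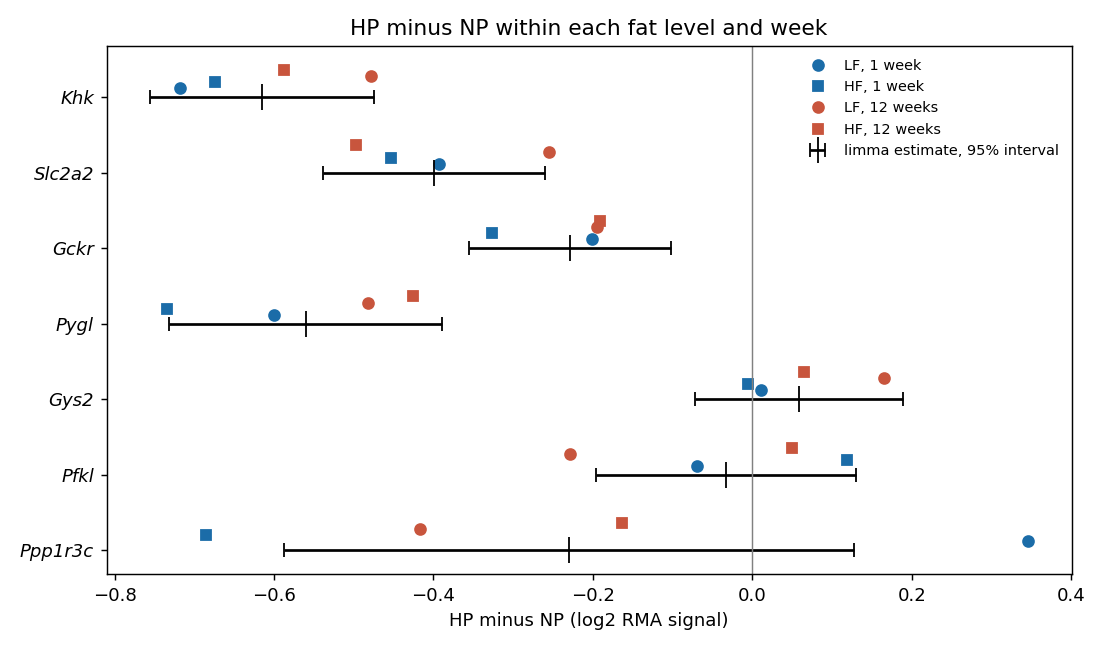
Log2 RMA signal in HP minus that in NP pools for each measured gene (rows), within each fat level and week (points, 1 pool against 1 pool) and from the limma fit over 8 pools (bar, estimate with its 95% interval). All 4 matched differences were negative for Khk, Slc2a2, Gckr and Pygl, while those of Gys2, Pfkl and Ppp1r3c lay on both sides of 0.

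Fat content was compared next, as HF diets also held less carbohydrate. None of the 7 genes was called between HF and LF pools, and neither was any of the 19938 genes (0%), of which 664 had an unadjusted p under 0.05 in limma, Khk, Slc2a2 and Gckr among them. The HF minus LF difference was -0.28 for Khk (SE 0.06), -0.24 for Slc2a2 (SE 0.06) and -0.19 for Gckr (SE 0.05), all with an adjusted p of 0.999. For Khk the difference was negative in each matched comparison, at -0.32 on NP and -0.27 on HP at 1 week and -0.21 and -0.32 at 12 weeks. HF lay below LF in all 4 matched comparisons for 4 of the 7 genes, Khk, Slc2a2, Gckr and Gys2, and for 3.62% of all genes. For Pygl the HF minus LF difference was -0.10 (SE 0.07, 95% interval -0.27 to 0.07), and it was 0.02 on HP at 12 weeks.

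Ordered by dietary carbohydrate, Khk, Slc2a2 and Gckr fell into the same sequence in both weeks, LF-NP above HF-NP, HF-NP above LF-HP and LF-HP above HF-HP. This order in both weeks was met by 3 of the 7 genes and by 0.456% of all genes. A gene with every HP pool below every NP pool and HF below LF in each matched comparison must fall into this order. These 3 genes met both patterns above, so their order is no separate result. For Gckr the middle step, HF-NP above LF-HP, was 0.06 at 1 week and 0.02 at 12 weeks, less than its residual SD of 0.077. The slope per 10% of energy as carbohydrate was 0.15 for Khk (SE 0.02, adjusted p = 0.0566), 0.11 for Slc2a2 (SE 0.01, adjusted p = 0.0694), 0.07 for Gckr (SE 0.01, adjusted p = 0.130) and 0.12 for Pygl (SE 0.03, adjusted p = 0.211). None of these passed the test in the fit with carbohydrate and week over 8 pools, in which 0.01% of genes did and 1880 genes had an unadjusted p under 0.05. Khk and Slc2a2 did pass when genes below the median level were left out (adjusted p = 0.0295 and 0.0337) or when the prior variance followed the level (adjusted p = 0.0329 and 0.0454). With 1 pool left out in turn neither passed, and the adjusted p of the slope ran from 0.0714 to 0.305 for Khk and from 0.0868 to 0.339 for Slc2a2.

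**Figure D2:**
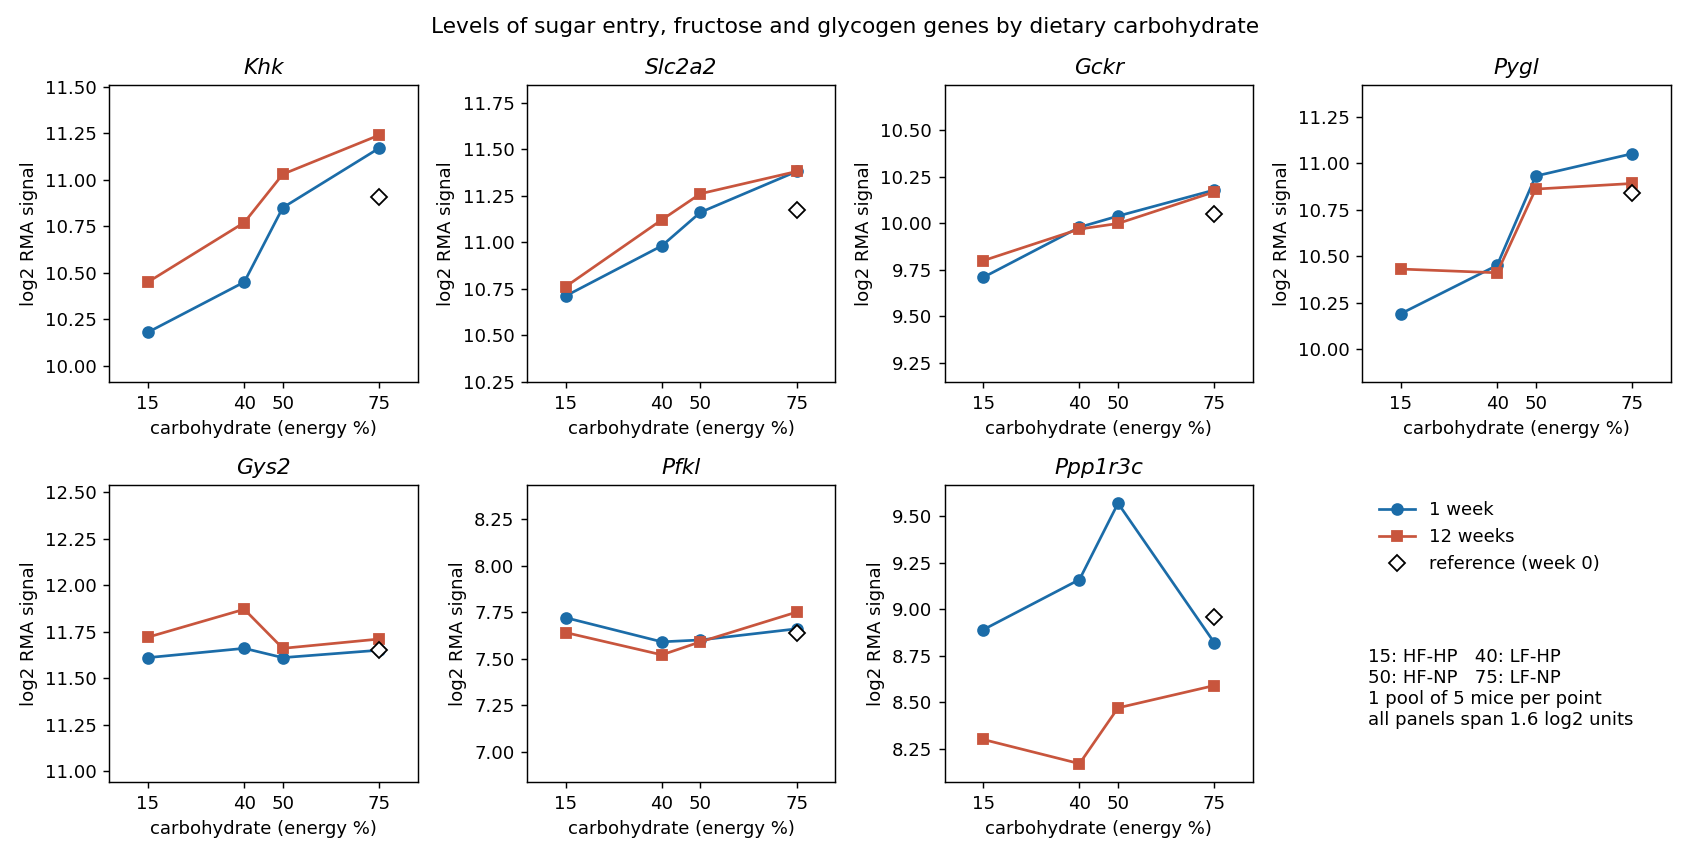
Log2 RMA signal of the 7 measured genes against dietary carbohydrate (energy %), 1 pool per point, with lines joining the pools of 1 week (circles) and 12 weeks (squares) and a diamond for the reference pool. Khk, Slc2a2 and Gckr stand in ascending order from HF-HP at 15% to LF-NP at 75% carbohydrate in both weeks, Pygl steps up between LF-HP at 40% and HF-NP at 50%, and Ppp1r3c separates by week.

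HF-NP and LF-HP differed by only 10% of energy in carbohydrate but by diet type, and the genes were unequal there. The HF-NP minus LF-HP difference was 0.48 at 1 week and 0.44 at 12 weeks for Pygl, 0.40 and 0.27 for Khk, 0.18 and 0.14 for Slc2a2, and 0.06 and 0.02 for Gckr. From LF-NP to HF-NP, a step of 25% of energy in carbohydrate, Pygl differed by 0.12 and 0.04 and Khk by 0.32 and 0.21. Per 10% of energy exchanged, protein in place of carbohydrate went with -0.16 for Pygl (95% interval -0.21 to -0.11) and fat in place of carbohydrate with -0.04 (-0.11 to 0.03). For Slc2a2 the same values were -0.11 for protein and -0.10 for fat, for Gckr -0.07 and -0.07, and for Khk -0.18 and -0.11. The test of protein against fat as the exchanged nutrient called none of the 19938 genes, of which 976 had an unadjusted p under 0.05. Pygl gave -0.12 (SE 0.04, 95% interval -0.20 to -0.04, adjusted p = 0.949), Khk -0.06 (-0.13 to 0.01), Slc2a2 -0.02 (-0.09 to 0.05) and Gckr 0.01 (-0.05 to 0.07). A separate response of Pygl to protein beyond that to fat was thus not called.

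**Figure D3:**
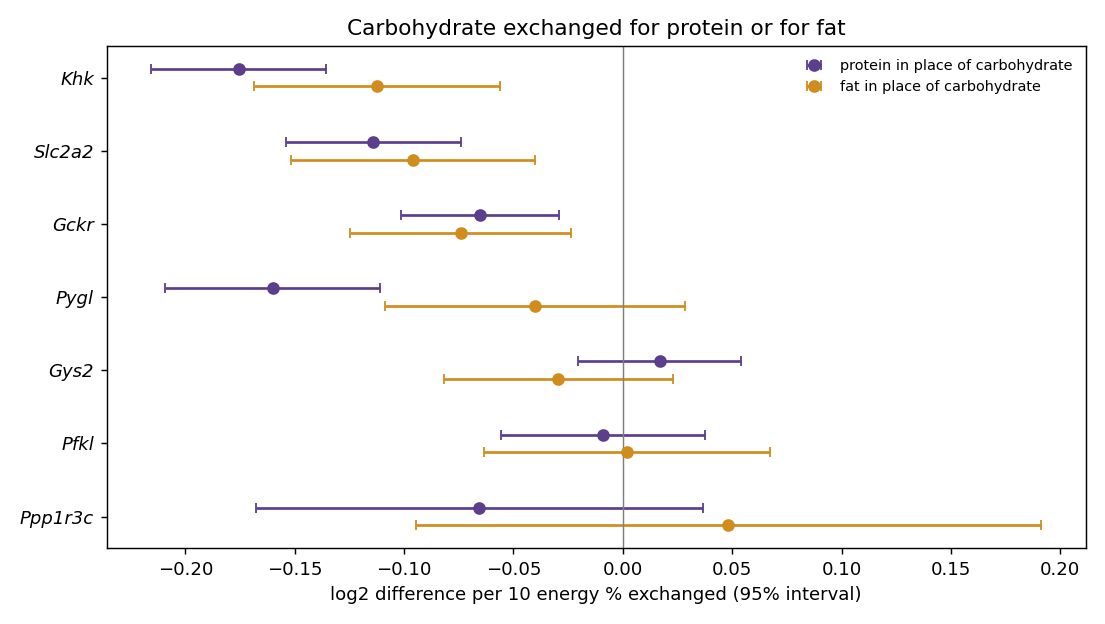
Log2 difference per 10 energy % of carbohydrate replaced by protein (upper point of each pair) or by fat (lower point), with 95% intervals from the limma fit over 8 pools, for the 7 measured genes. The intervals for protein and fat overlap for Slc2a2, Gckr and Khk, and those for Pygl meet at -0.11 without overlapping.

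Between 12 weeks and 1 week, none of the 7 genes was called, and 0.00502% of all genes were, while 1538 genes had an unadjusted p under 0.05. The 12 minus 1 week difference was -0.73 for Ppp1r3c (SE 0.15, 95% interval -1.08 to -0.37, adjusted p = 0.499). All of its 12 week pools, at 8.17 to 8.59, lay below all of its 1 week pools, at 8.82 to 9.57, and below the reference pool. Such a separation was met by 1 of the 7 genes and by 2.1% of all genes. Khk gave 0.21 (SE 0.06, adjusted p = 0.564) and was higher at 12 weeks on each diet, by 0.07 on LF-NP, 0.31 on LF-HP, 0.18 on HF-NP and 0.27 on HF-HP. The interactions of protein with fat and of protein with week called none of the 19938 genes, and 1400 and 523 genes had an unadjusted p under 0.05 in limma, none of the 7 among them. For the interaction with week the estimate was 0.21 for Pygl (95% interval -0.12 to 0.54) and 0.16 for Khk (-0.12 to 0.44) and both intervals included 0.

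The reference pool ate the same diet as the later LF-NP pools, which were higher than it by 0.26 and 0.33 for Khk, 0.21 and 0.21 for Slc2a2, 0.13 and 0.11 for Gckr and 0.21 and 0.05 for Pygl at 1 and 12 weeks. The reference pool stayed out of the fits, and these differences were not tested. The difference of Khk from the reference pool was -0.46 on LF-HP and -0.73 on HF-HP at 1 week, and -0.15 and -0.47 at 12 weeks. HF-NP lay within the residual SD of 0.085 of the reference for Khk at 1 week, with a difference of -0.06, and 0.12 above it at 12 weeks.

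Within the set, Khk, Slc2a2, Gckr and Pygl followed one another over the 9 pools, with Pearson correlations of 0.875 to 0.972, which are descriptions over pools that share the diets. Gys2 and Ppp1r3c ran opposite ways (r = -0.731). The genes most like Khk among those above the median level were Elovl6 (r = 0.983), an elongase of long-chain fatty acids, and Dnph1 (r = 0.978). Slc2a2 was nearest to Khk itself (r = 0.972) and then to Hlf (r = 0.971), a PAR bZIP transcription factor. Gckr was nearest to Gm11437 (r = 0.970) and Irf2bpl (r = 0.968), and Pygl to Gramd3 (r = 0.980) and Proc (r = 0.974), which encodes the anticoagulant protein C. Gys2 was nearest to Gm6548 (r = 0.921) and Pde4b (r = 0.909), and Pfkl to Cpped1 (r = 0.957) and Ccdc50 (r = 0.940). Ppp1r3c was nearest to Acox2 (r = 0.957), an oxidase of bile acid intermediates, and Psen2 (r = 0.953). Each nearest gene was picked for the highest r among many genes over only 9 pools. Such values can be high for any profile, and none was tested.

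The wider pathways were followed in lists of 77 other genes, 68 of which were measured, covering transport, fructose and polyol handling, glucose phosphorylation and release, glycolysis, fructose 2,6-bisphosphate control and glycogen. Between HP and NP pools 2 of the 68 were lower, Tkfc and Pklr, none was higher and 66 did not pass. Over all genes, 0.271% were lower and 0.171% higher. The median difference of the 68 was 0.02, and 41 were positive and 27 negative. Pklr, the liver enzyme of the last step of glycolysis, was at 11.96, 11.35, 10.58 and 10.50 after 1 week and at 11.91, 11.73, 11.25 and 11.13 after 12 weeks on LF-NP, HF-NP, LF-HP and HF-HP. It fell with HP by 0.87 on the log2 scale (SE 0.13, adjusted p = 0.0474), and its levels followed the order of dietary carbohydrate in both weeks.

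**Figure D4:**
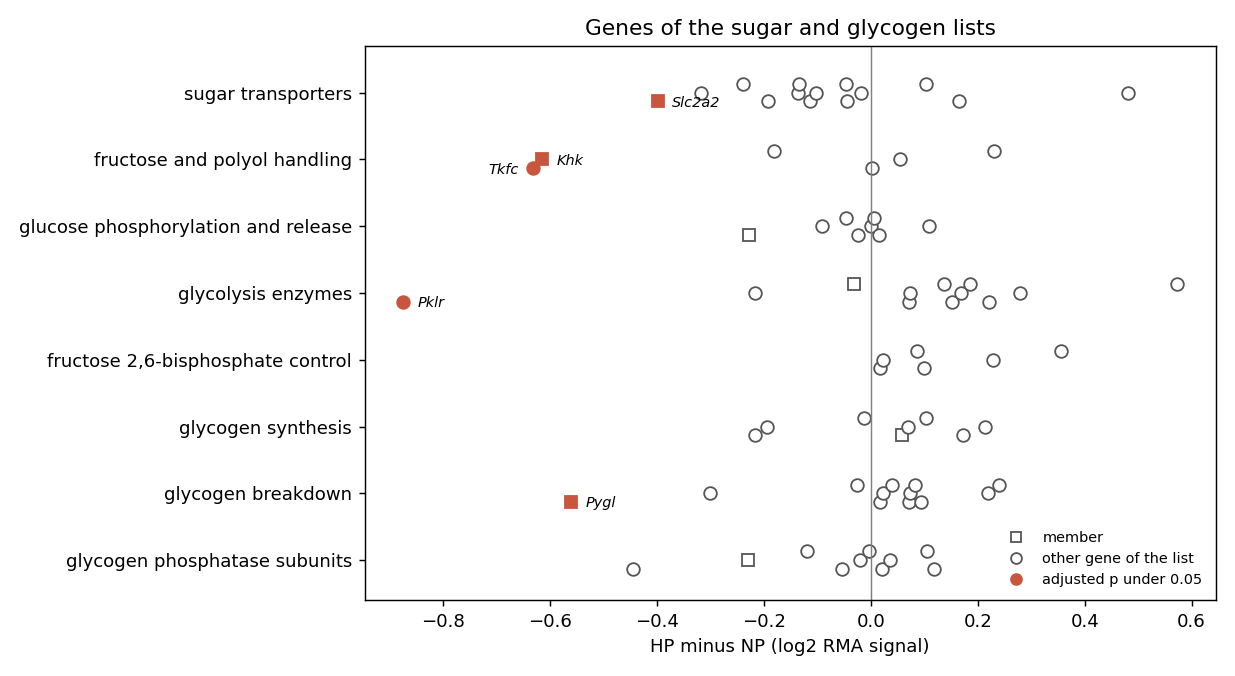
Log2 RMA signal in HP minus that in NP pools of each measured gene of the pathway lists (rows, 1 point per gene, squares for the 7 genes described and circles for the others), with genes of adjusted p under 0.05 filled and named. The 5 named genes are all lower in HP pools and come from 4 of the lists.

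None of the other 13 sugar transporters passed, and the nearest were Slc2a1, the widely expressed GLUT1, at 0.48 (adjusted p = 0.218), Slc45a3 at -0.32 and Slc5a2, the renal SGLT2, at 0.17. Of the other fructose and polyol genes, 1 of 5 passed (Tkfc), while Gfpt1, which opens the hexosamine route, gave 0.23 and Aldh1a1 -0.18. Of the 7 other genes of glucose phosphorylation and release none passed, with G6pc3 at 0.11, Hk3 at -0.09 and the glucose 6-phosphate transporter Slc37a4 at -0.05. Besides Pklr, 10 glycolytic genes did not pass, with Pgk1 at 0.28 (adjusted p = 0.148) and Pgam1 at 0.19. The list of fructose 2,6-bisphosphate control had 6 measured genes, which included the fructose 1,6-bisphosphatases Fbp1 and Fbp2. None of them passed, with Pfkfb2 at 0.36 (adjusted p = 0.324), Pfkfb3 at 0.23 and Tigar at 0.10.

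None of the other glycogen genes passed. In synthesis, 7 other genes included the branching enzyme Gbe1 at -0.22, glycogenin (Gyg) at 0.21 and the kinase Gsk3b at -0.19. In breakdown, 11 others included Stbd1, which tethers glycogen to membranes, at -0.30 (adjusted p = 0.153), the phosphorylase kinase subunit Phka1 at 0.24 and the brain phosphorylase Pygb at 0.22. Among 9 other phosphatase subunits Ppp1r3b, the main glycogen-targeting subunit of liver, was nearest to the threshold with -0.45 (SE 0.08, adjusted p = 0.0946), its HP pools at 9.14 to 9.48 and its NP pools at 9.67 to 9.89. Ppp1r3f was at 0.12 and the catalytic subunit Ppp1ca at 0.11.

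Hepatocyte markers had mean levels of 13.19 to 13.88 for the 5 of 6 measured, which were Alb, Ttr, Apoa1, Cps1 and Tat. None of them was called between HP and NP pools, and 2 were higher and 3 lower in HP. The summed level of the hepatocyte markers was 15.85 to 15.93 (log2) in HP and 15.76 to 15.88 in NP pools. Markers of Kupffer cells were lower in HP for 5 of 6, none called, with a summed level of 10.32 to 11.12 in HP and 10.69 to 11.19 in NP pools. The summed levels of the markers of cholangiocytes, endothelial, stellate, lymphoid, erythroid, adipose, muscle and pancreatic cells also overlapped between HP and NP pools. None of these genes was called. Lower in HP were 3 of 4 cholangiocyte, 3 of 5 endothelial and 4 of 5 stellate markers. The only erythroid marker measured of 4 listed, Alas2, was at -0.30. Lymphoid and adipose markers were 2 lower and 2 higher, while 3 of 4 muscle and 2 of 3 pancreatic markers were higher. The part of these cell types in the differences of the 7 genes was not tested.

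The calls rest on few pools. With 1 pool left out in turn, the HP minus NP estimate stayed between -0.65 and -0.59 for Khk, -0.62 and -0.49 for Pygl and -0.44 and -0.37 for Slc2a2, but with the smaller fit Khk alone passed, and only without LF-HP at 12 weeks (adjusted p = 0.0467). Without any of the other 7 diet pools, none of the genes passed. With each matched pair of pools as a replicate block, Khk alone passed (adjusted p = 0.0381), with Pygl at 0.0567 and Slc2a2 at 0.096. Without fat and week as terms, Pygl alone passed (adjusted p = 0.0211).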

How the data were processed

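Each array held the liver RNA of 1 pool of 5 mice. The authors normalised the arrays by RMA and deposited log2 values for 35556 probe sets. The methods describe probes regrouped by Entrez Gene, whereas the deposited table carries the array maker's probe set identifiers, so the probe grouping behind each level was not settled. A probe set was kept if the annotation gave it 1 gene symbol (21789 probe sets), and each of 19938 genes was read from its probe set of highest mean. No filter on level was applied. Array medians differed by at most 0.064, and the number of arrays limits the precision.

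HP and NP, HF and LF, and 12 and 1 week were tested against each other in limma 3.58.1 (R 4.3.3) over 8 diet pools with protein, fat and week as terms (4 residual degrees of freedom). Carbohydrate was fitted with week as a term (5 residual degrees of freedom), and interactions by 1 more term. The reference pool stayed out of the fits. The Benjamini-Hochberg adjustment ran over all genes, and the threshold was 0.05. The genes and the gene lists were chosen with earlier results of these data known. In each list the 3 other genes with the smallest p were named, and likeness was taken as Pearson's r over 9 pools among genes at or above the median level, with 2 genes named each. Alternatives concerned terms, filter, prior, array weights, centring, subsets of pools and leaving out 1 pool.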

Additional observations from a re-analysis of the deposited data

Results flagged for a closer look

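The HP pools of Pygl held 1 pool far from the others. HF-HP at 1 week was at 10.19, with the other HP pools at 10.41 to 10.45, and its gap to the nearest was 0.856 of the range of the 4 HP pools. The HP and NP pools of the 7 genes made 14 such groups, and chance alone gives this in about 1 of 20 groups of 4 replicates. These pools were no replicates, since they differed in fat level and week, so that rate is only a guide. Without this pool the HP minus NP difference of Pygl was -0.49 (limma, adjusted p = 0.0759).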

How the results depend on the processing

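The count of the 7 genes called between HP and NP pools was 3. It was 1 without fat and week as terms and 1 with a replicate block of matched pools, while within the 1 week, 12 week, LF or HF pools alone (1 residual degree of freedom) it was 0. Leaving out 1 pool gave 0 to 1. The count called by the carbohydrate slope was 0, and it became 2 at an adjusted p under 0.1, 2 without genes below the median level, 2 with a prior that followed the level, 1 with array weights (Khk, adjusted p = 0.0456) and 1 with centred arrays (Khk, adjusted p = 0.037). The cause was not tested. The HP minus NP difference of Khk, Slc2a2, Gckr and Pygl stayed negative in every setting run. The 12 minus 1 week difference became -0.0048 with array weights and -0.0302 within NP for Gckr, 0.1004 within HP for Pygl and 0.0412 within NP for Pfkl. The HF minus LF difference of Pfkl became -0.0078 with array weights, -0.0029 with centred arrays, -0.0234 at 12 weeks and, in subsets chosen after seeing the data, -0.112 within NP, and that of Ppp1r3c -0.0736 within HP. The HP minus NP difference of Pfkl became 0.0246 at 1 week and 0.0844 within HF, and the carbohydrate slope of Gys2 0.0005 with centred arrays. With 1 pool left out, the 12 minus 1 week difference ran from -0.0234 to 0.0257 for Gckr, -0.0719 to 0.029 for Pfkl and -0.072 to 0.0362 for Pygl, and HF minus LF from -0.04 to 0.0609 for Pfkl and -0.0523 to 0.2355 for Ppp1r3c. For Pfkl, HP minus NP ran from -0.077 to 0.0238, the carbohydrate slope from -0.0121 to 0.0202 (for Gys2 from -0.0059 to 0.0034) and protein against fat from -0.0321 to 0.0178. The interaction with fat ran from -0.1271 to 0.0111 for Gys2, -0.122 to 0.0569 for Khk and -0.202 to 0.1234 for Pygl, and that with week from -0.5411 to 0.3007 for Ppp1r3c and -0.0354 to 0.1286 for Slc2a2.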
